A study of Mus musculus with 12 samples.

Results

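The genes described here are the interleukin 6 (IL-6) family cytokines Il6, Lif and Osm, the receptor chains Il6ra and Il6st, the transcription factor Stat3, and the feedback inhibitors Socs1, Socs2, Socs3 and Cish. These 10 genes were taken by name, through their Ensembl identifiers, from the 56941 gene IDs of the count table. The rule that takes them uses no measured value, but it was chosen with earlier results of these data known. All 10 were found and all 10 passed the filter on low counts. They were measured in RAW264.7 cells, a mouse macrophage line derived from an Abelson virus-induced tumor, in a study of how sustained compression alters macrophages. Compressed macrophages (n = 6) spent 24 h on porous inserts beneath an agarose cushion loaded with a printed weight, which gave 0.14 kPa. Uncompressed controls (n = 6) spent the same 24 h beneath the cushion without the weight. No other agent, genotype or time was sequenced in these groups, both groups are the same cell line, and the controls also carry the cushion. The sources used here do not say whether each library was a culture of its own, so the p-values measure the spread between these libraries, which may be technical.

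Cytokines of the IL-6 family signal through a shared receptor chain, gp130, the product of Il6st, which pairs with a chain that recognises the single cytokine. Janus kinases bound to these chains phosphorylate STAT3, which enters the nucleus and switches on target genes. Among the targets is Socs3, whose protein binds gp130 and the kinases and ends the signal, while Cish and Socs2 are classical targets of STAT5 and Socs1 is classically induced by interferons. In macrophages this circuit is known for setting whether a stimulus ends in an inflammatory or a restraining response.

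The libraries held 33460807 to 39103987 counts in compressed macrophages and 37948795 to 40463545 counts in controls. Levels are given in CPM, the count of a gene per 1000000 counts of the library after scaling by TMM, a correction for differences in library composition. Compressed replicate 6 stood apart: its log2 CPM correlated at 0.968 to 0.975 with the other compressed libraries, which correlated at 0.994 to 0.996 with each other. Its departure from them followed transcript length, with a median of 0.55 on the log2 scale in the shortest of 5 equal classes of tested genes and -0.57 in the longest. Of 10 macrophage markers, 9 were at 1 CPM or more in every library, all but Mertk, which averaged 0.934 CPM in compressed macrophages and 0.308 CPM in controls. Their summed level was 7918 to 9787 CPM in compressed macrophages and 6424 to 6875 CPM in controls. Much of that sum was Lyz2, the highest of them, at a mean of 4204 CPM in compressed macrophages and 2678 CPM in controls. The markers did not move together: by the edgeR test described below, 5 of the 10 were higher and 3 were lower. Over all tested genes 24.5% were higher and 21.9% were lower. Of 23 markers of fibroblasts, epithelium, endothelium, lymphocytes and neutrophils, 0 reached 1 CPM in every library, and 6 had 0 counts in every library (among them Col3a1, Cd3e, Ms4a1 and Ly6g). They summed to 0.849 to 1.49 CPM in compressed macrophages and 0.771 to 1.26 CPM in controls. Each library is a bulk sample, so a change in the share of cells that make an mRNA and a change in the mRNA per cell cannot be told apart.

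**Figure D1:**
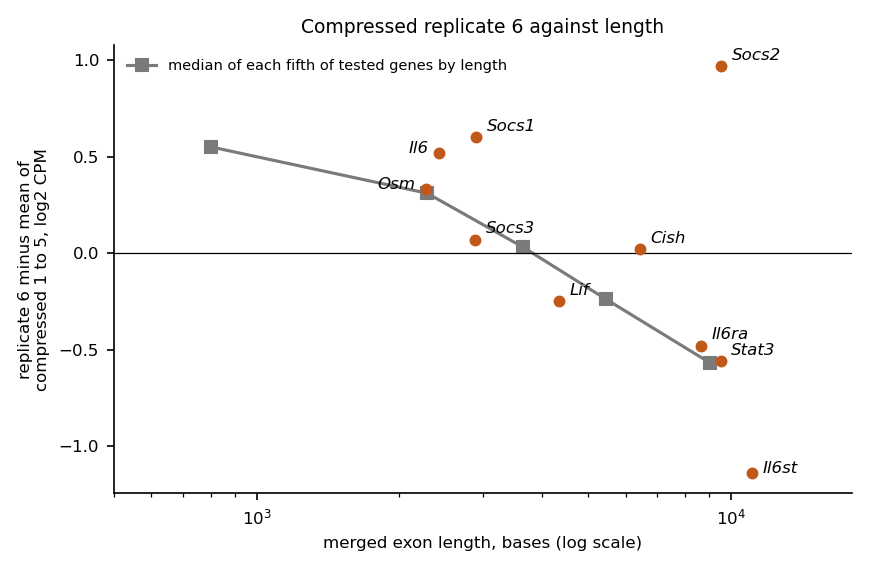
Compressed replicate 6 minus the mean of compressed replicates 1 to 5 (log2 CPM, vertical axis) against merged exon length in bases (log axis), for the 10 genes (circles) and as the median of each of 5 equal length classes of all tested genes (squares). The medians run from 0.55 in the shortest class to -0.57 in the longest, Il6st lies lowest at -1.14, and Socs2 lies highest at 0.97.

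Of the 10 genes, 6 were higher and 1 was lower in compressed macrophages by edgeR's quasi-likelihood test, with the threshold at 0.05 after Benjamini-Hochberg adjustment. The higher genes were Cish, Lif, Socs2, Socs3, Il6 and Osm, and the lower gene was Il6ra. Over all 15001 tested genes 24.5% were higher and 21.9% were lower by the same test, 46.4% in all, against which the 7 called genes of 10 should be read. The 10 genes had a median of 1.32 on the log2 fold change scale, and all tested genes one of 0.02. The groups did not overlap in any library for the same 7 genes, a pattern that 33.6% of all tested genes showed (16.5% higher and 17% lower). DESeq2 called the same number, 6 higher and 1 lower. Without compressed replicate 6, 8 of the 10 were higher and 1 was lower, beside 33.8% higher and 32.2% lower among all genes tested then.

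**Figure D2:**
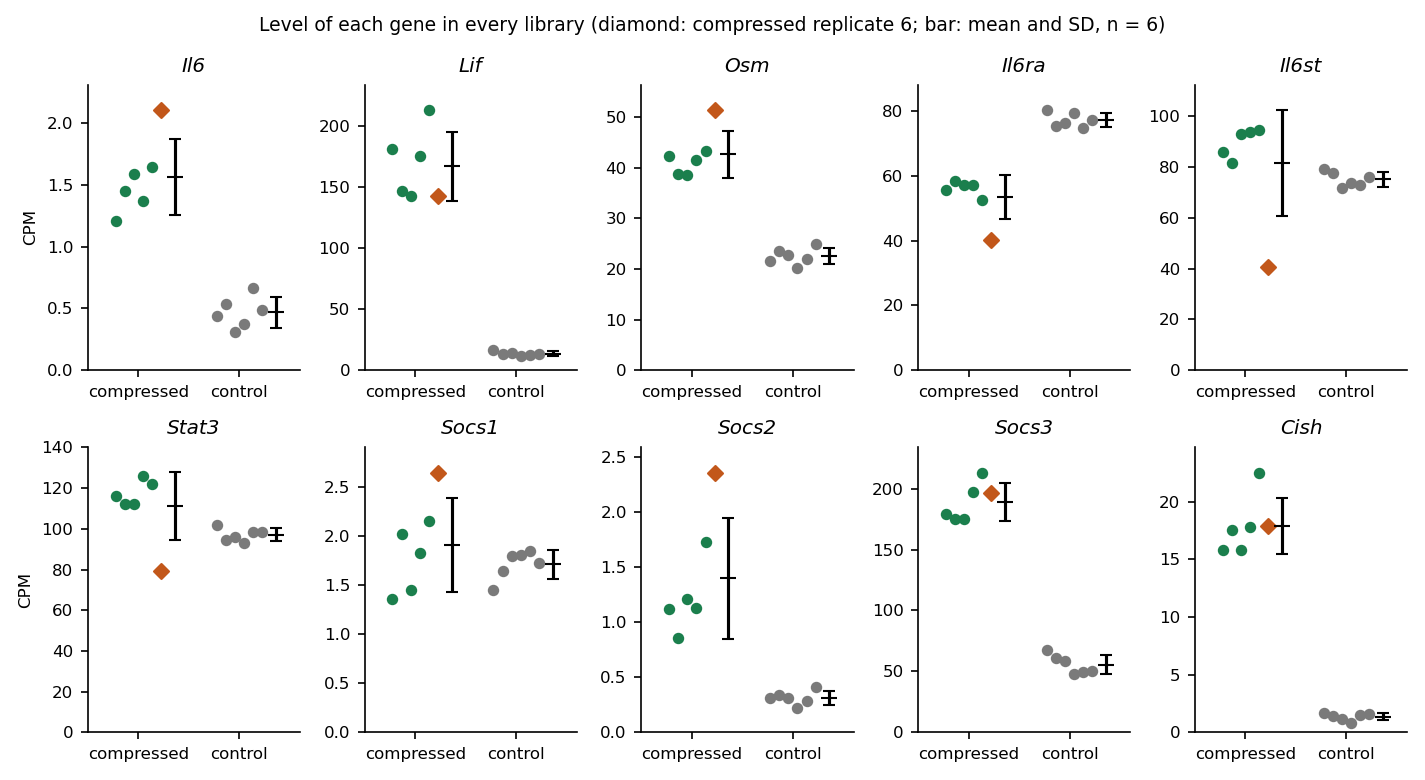
CPM of each of the 10 genes (vertical axes, each starting at 0) in the 6 compressed and the 6 control libraries, with the mean and SD beside the points and compressed replicate 6 drawn as a diamond. The groups are separate for Il6, Lif, Osm, Il6ra, Socs2, Socs3 and Cish, while the diamond lies below the controls for Il6st and Stat3.

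All 3 ligands were higher in compressed macrophages, and they differed widely in level and in size of change. Lif encodes leukemia inhibitory factor, which signals through the LIF receptor and gp130. Its level was 143 CPM at the lowest, 161 CPM at the median and 213 CPM at the highest in compressed macrophages, against 11.9, 13.3 and 16.8 CPM in controls. The lowest compressed library was therefore far above the highest control. Lif averaged 167 ± 28.1 CPM in compressed macrophages and 13.6 ± 1.79 CPM in controls (SD, n = 6 each), a 12.3-fold difference. Its log2 fold change was 3.62 (SE 0.123, 95% interval 3.35 to 3.89, edgeR adjusted p = 1.74e-10), and 41 tested genes had a larger one.

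Osm encodes oncostatin M, which macrophages and other leukocytes secrete and which also signals through gp130. Its compressed libraries ran from 38.6 CPM through a median of 41.9 CPM to 51.3 CPM, against 20.2, 22.4 and 24.9 CPM in controls. Every compressed library was above every control, and compressed replicate 6 was the highest. The means were 42.6 ± 4.65 CPM in compressed macrophages and 22.5 ± 1.64 CPM in controls (SD, n = 6 each), a log2 fold change of 0.92 (SE 0.074, 95% interval 0.76 to 1.08, edgeR adjusted p = 2.7e-07). Osm and Lif are direct neighbours on chromosome 11 in the RefSeq gene order, and the ratio of their levels was not kept. Per length, Lif stood at 2.06 ± 0.375 times Osm in compressed macrophages (range 1.45 to 2.57) and at 0.317 ± 0.0479 times Osm in controls (range 0.272 to 0.408; SD, n = 6 each). The ratio thus turned over, with Lif above Osm in every compressed library and below it in every control (two-sided exact permutation p = 0.00216, which is as small as 6 against 6 libraries allow, and 0.00361 adjusted over the 5 ratios computed). That p-value follows from the fold changes of Lif and Osm and is no separate evidence.

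Il6 encodes the cytokine that gives the family its name, and it was the scarcest of the 3 ligands. Its lowest, median and highest levels were 1.21, 1.52 and 2.1 CPM in compressed macrophages, against 0.309, 0.463 and 0.668 CPM in controls. The groups were separate, with compressed replicate 6 the highest of all 12 libraries. The counts behind these levels were small, 331 over the 6 compressed libraries and 112 over the 6 controls. Il6 averaged 1.56 ± 0.306 CPM in compressed macrophages and 0.469 ± 0.126 CPM in controls (SD, n = 6 each), a 3.31-fold difference with a log2 fold change of 1.73 (SE 0.185, 95% interval 1.33 to 2.13, edgeR adjusted p = 4.32e-06). Within libraries, Il6 also gained on Osm: the per-length ratio was 0.0341 ± 0.00456 in compressed macrophages and 0.0195 ± 0.00517 in controls (exact permutation p = 0.00433 two-sided, and 0.00433 adjusted over the 5 ratios; SD, n = 6 each). The ranges of that ratio overlapped, with 0.0267 to 0.0384 in compressed macrophages and 0.0127 to 0.0284 in controls.

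The promoters of Il6 and Lif are shown because both cytokine genes were higher and because their windows hold the same pair of motifs. RefSeq gives a window around the start of 8 of the 10 genes, from 250 bases before the start to 50 bases after it (GRCm38.p6). Osm and Socs2 were not among the matched windows. The 280 bases up to 30 bases after the start are printed 5′ to 3′ on the strand of the gene, chr5:30012864-30013143 on the plus strand for Il6 and chr11:4257318-4257597 on the plus strand for Lif. Capitals mark the matches to the NF-kB motif and to the AP-1 motif TGANTCA.
Il6: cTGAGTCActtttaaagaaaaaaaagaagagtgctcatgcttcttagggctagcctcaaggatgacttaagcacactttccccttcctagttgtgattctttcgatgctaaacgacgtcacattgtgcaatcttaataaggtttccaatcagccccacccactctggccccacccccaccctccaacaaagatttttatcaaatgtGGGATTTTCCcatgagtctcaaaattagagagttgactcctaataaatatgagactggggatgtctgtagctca
Lif: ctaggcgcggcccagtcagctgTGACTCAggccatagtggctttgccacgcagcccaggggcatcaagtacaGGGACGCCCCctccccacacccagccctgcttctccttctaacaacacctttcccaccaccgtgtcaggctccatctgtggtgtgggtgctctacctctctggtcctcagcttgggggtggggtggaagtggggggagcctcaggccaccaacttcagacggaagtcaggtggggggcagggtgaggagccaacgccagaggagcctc
The NF-kB match in Il6, GGGATTTTCC, lay at -44 to -35 relative to the start, and its AP-1 match TGAGTCA lay at -249 to -243. In Lif the NF-kB match GGGACGCCCC lay at -178 to -169, and the AP-1 match TGACTCA lay at -228 to -222. None of these matches overlapped another. Searched on both strands, 8.46% of all 32851 RefSeq windows of the same length held the NF-kB motif and 7.81% held the AP-1 motif. A match is a stretch of letters and no evidence of binding. The windows of Il6ra, Il6st, Stat3, Socs1, Socs3 and Cish held neither motif. Of these, Socs3 and Cish were also higher in compressed macrophages.

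The receptor chains did not follow the ligands. Il6ra, the chain that recognises IL-6 itself, was the 1 gene of the 10 that fell. Its levels in compressed macrophages were 40.3 CPM at the lowest, 56.4 CPM at the median and 58.4 CPM at the highest, against 75, 76.9 and 80.3 CPM in controls. All compressed libraries lay below all controls, and compressed replicate 6 was the lowest of them. Il6ra averaged 53.6 ± 6.82 CPM in compressed macrophages and 77.4 ± 2.19 CPM in controls (SD, n = 6 each), a log2 fold change of -0.53 (SE 0.078, 95% interval -0.70 to -0.36, edgeR adjusted p = 8.24e-05). Without compressed replicate 6 it was -0.46 (edgeR adjusted p = 1.54e-10), so the fall did not rest on that library.

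Il6st, the shared signalling chain gp130, was not called, and that outcome depended on 1 library. Its compressed libraries ran from 40.6 CPM through a median of 89.4 CPM to 94.5 CPM, against 71.5, 74.9 and 79.3 CPM in controls. Compressed replicates 1 to 5 were all above the highest control, and compressed replicate 6 was far below the lowest one. With all libraries the log2 fold change was 0.12 (SE 0.159, 95% interval -0.23 to 0.46, edgeR adjusted p = 0.579). Leaving compressed replicate 6 out gave 0.25 (edgeR adjusted p = 1.32e-05). With a per-library offset on transcript length, which used all libraries, it was 0.11 (edgeR adjusted p = 0.237). Il6st has the longest merged exons of the 10 genes, 11099 bases.

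The ratio of Il6st to Il6ra was higher in compressed macrophages, where Il6ra was lower and Il6st was not called. Per length, Il6st stood at 1.17 ± 0.215 times Il6ra in compressed macrophages and at 0.757 ± 0.0281 times Il6ra in controls (SD, n = 6 each; exact permutation p = 0.00433 two-sided, and 0.00433 adjusted over the 5 ratios). The compressed libraries ranged from 0.784 to 1.4 and the controls from 0.722 to 0.799. Without compressed replicate 6, whose ratio of 0.784 fell among the controls, the compressed range was 1.09 to 1.4.

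The chains that pair with gp130 for the other 2 ligands were close to absent, an observation chosen after their values were seen. Lifr, which pairs with gp130 for leukemia inhibitory factor, had 12 counts over the 6 compressed libraries and 27 over the 6 controls. Osmr, which pairs with gp130 for oncostatin M, had 0 counts over the 6 compressed libraries and 3 over the 6 controls. Both were under the filter on low counts and were not tested. A count of 0 at this depth allows up to 3 counts per group.

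Stat3, the transcription factor at the centre of the pathway, had lowest, median and highest levels of 79.4, 114 and 126 CPM in compressed macrophages, against 93, 97.3 and 102 CPM in controls. As for Il6st, compressed replicates 1 to 5 were above every control and compressed replicate 6 was below every control. The log2 fold change over all libraries was 0.20 (SE 0.090, 95% interval 0.0023 to 0.39, edgeR adjusted p = 0.0917) and did not pass the threshold. Without compressed replicate 6 it was 0.27 (edgeR adjusted p = 1.06e-06), and with the offset on transcript length it was 0.22 (edgeR adjusted p = 0.00015). The means were 111 ± 16.6 CPM in compressed macrophages and 97.1 ± 3.09 CPM in controls (SD, n = 6 each), so any difference in Stat3 mRNA was small beside those of the ligands. Activation of STAT3 is a phosphorylation and was not measured by these libraries. The paper reports Western blots of STAT3 and of phosphorylated STAT3, in which it saw no clear change with compression. The Stat3 exons share 72 bases with Stat5a on the opposite strand, and the strand setting of the counting is not given in the sources used here.

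**Figure D3:**
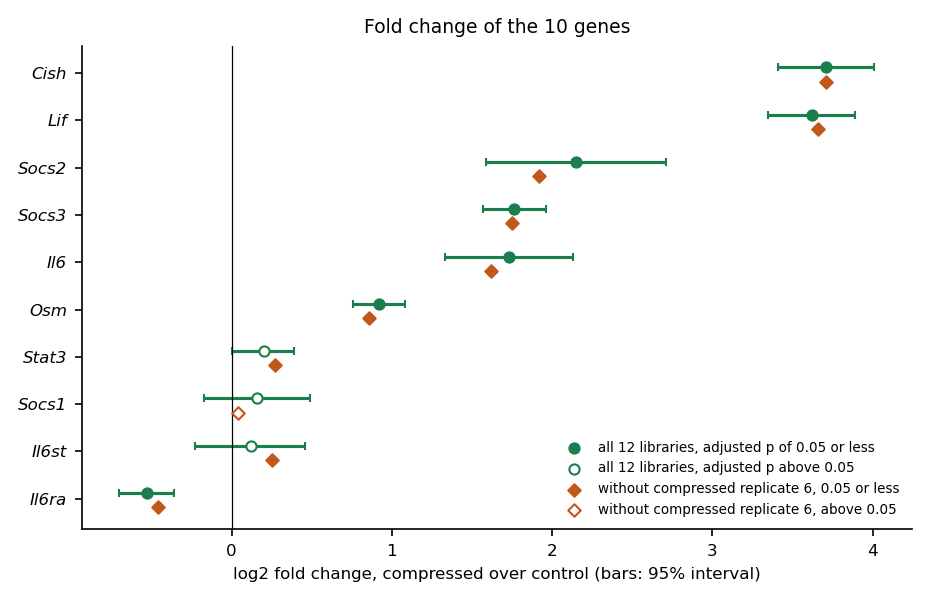
Log2 fold change of each of the 10 genes, compressed over control (horizontal axis), with the 95% interval over all 12 libraries (circles) and the value without compressed replicate 6 (diamonds). Filled symbols are at an edgeR adjusted p of 0.05 or less. Il6st and Stat3 are open with all libraries and filled without that replicate, and Socs1 is open in both.

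The feedback inhibitors split into 3 genes that rose and 1 that was not called. Socs3, the inhibitor that STAT3 induces and that acts on gp130, was the most abundant of them. Its lowest, median and highest levels were 175, 187 and 213 CPM in compressed macrophages, against 47.9, 54.4 and 67.5 CPM in controls. The groups lay far apart, and compressed replicate 6 fell within the range of the other compressed libraries. Socs3 averaged 189 ± 15.3 CPM in compressed macrophages and 55.7 ± 7.74 CPM in controls (SD, n = 6 each), a 3.4-fold difference with a log2 fold change of 1.76 (SE 0.090, 95% interval 1.57 to 1.96, edgeR adjusted p = 4.37e-09). Set against the mRNA of its inducer within each library, Socs3 stood per length at 5.73 ± 1.2 times Stat3 in compressed macrophages (range 5.1 to 8.14) and at 1.89 ± 0.239 times Stat3 in controls (range 1.65 to 2.19; SD, n = 6 each). This ratio did not overlap between the groups (exact permutation p = 0.00216 two-sided, and 0.00361 adjusted over the 5 ratios). That p-value follows from the fold changes of Socs3 and Stat3 and is no separate evidence. The value of 8.14 came from compressed replicate 6, and the other compressed libraries ran from 5.1 to 5.75.

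Cish, a SOCS family member induced by STAT5 downstream of cytokines such as GM-CSF, had the largest change of the 10 genes. It was measured at 15.8, 17.7 and 22.5 CPM (lowest, median and highest) in compressed macrophages, against 0.854, 1.45 and 1.65 CPM in controls. Every compressed library was many times above every control. Cish averaged 17.9 ± 2.45 CPM in compressed macrophages and 1.36 ± 0.294 CPM in controls (SD, n = 6 each), a 13.1-fold difference with a log2 fold change of 3.71 (SE 0.140, 95% interval 3.41 to 4.01, edgeR adjusted p = 3.68e-10). Over all tested genes, 36 had a larger log2 fold change. Opposite-strand gene models that share exon bases with Cish, Gm17041 and Gm17040, had 0 and 2 counts over all libraries.

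Socs2, best known as a brake on growth hormone signalling and likewise a target of STAT5, was the scarcest of the 10 genes and was higher in compressed macrophages. Its levels were 0.861, 1.17 and 2.36 CPM (lowest, median and highest) in compressed macrophages, against 0.226, 0.312 and 0.412 CPM in controls. The groups were separate, although the compressed libraries were spread widely, with compressed replicate 6 the highest. The log2 fold change was 2.15 (SE 0.261, 95% interval 1.59 to 2.71, edgeR adjusted p = 1.36e-05), a 4.43-fold difference that rested on 297 counts in compressed libraries and 75 in controls. It was 1.92 when compressed replicate 6 was left out (edgeR adjusted p = 7.55e-08).

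Socs1, the inhibitor most closely tied to interferon signalling, was the 1 inhibitor of the 4 that was not called. Its levels were 1.36, 1.92 and 2.65 CPM (lowest, median and highest) in compressed macrophages, against 1.45, 1.76 and 1.85 CPM in controls. The control range lay wholly inside the compressed range. The log2 fold change was 0.16 (SE 0.152, 95% interval -0.17 to 0.49, edgeR adjusted p = 0.422), and without compressed replicate 6 it was 0.04 (edgeR adjusted p = 0.817). The interval leaves room for a change of either sign, but not for one of the size seen in Cish, Socs2 or Socs3. The relation of Cish to Socs1 therefore moved strongly within libraries: per length, Cish stood at 4.39 ± 0.794 times Socs1 in compressed macrophages (range 3.06 to 5.29) and at 0.365 ± 0.102 times Socs1 in controls (range 0.214 to 0.513; SD, n = 6 each; exact permutation p = 0.00216 two-sided, and 0.00361 adjusted over the 5 ratios). That p-value follows from the fold changes of Cish and Socs1 and is no separate evidence.

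The promoters of Cish and Socs3 are shown because they alone, among the 8 windows, held the STAT motif TTCNNNGAA, and because both genes rose. The 280 printed bases are chr9:107296409-107296688 on the plus strand for Cish and chr11:117969337-117969616 on the minus strand for Socs3 (GRCm38.p6, RefSeq), 5′ to 3′ on the strand of the gene and ending 30 bases after the start. Capitals mark the matches to the motif.
Cish: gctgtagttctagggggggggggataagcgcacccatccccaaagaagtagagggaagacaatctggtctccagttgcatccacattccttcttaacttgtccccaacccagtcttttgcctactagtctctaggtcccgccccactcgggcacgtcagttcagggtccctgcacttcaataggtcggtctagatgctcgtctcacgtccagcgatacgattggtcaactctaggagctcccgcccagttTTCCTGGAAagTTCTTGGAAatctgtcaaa
Socs3: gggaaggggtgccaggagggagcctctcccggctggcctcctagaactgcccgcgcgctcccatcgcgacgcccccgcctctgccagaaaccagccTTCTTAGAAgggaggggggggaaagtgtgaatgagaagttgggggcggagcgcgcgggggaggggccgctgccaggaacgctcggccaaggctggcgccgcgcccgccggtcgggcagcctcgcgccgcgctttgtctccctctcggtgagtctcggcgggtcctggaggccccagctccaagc
Cish held 2 matches, TTCCTGGAA at +1 to +9 and TTCTTGGAA at +12 to +20, with 2 bases between them. Socs3 held 1 match, TTCTTAGAA, at -154 to -146. Of all 32851 windows, searched on both strands, 8.3% held at least 1 match and 0.457% held 2 or more. Matches to TTCNNNGAA were not found in the windows of Il6, Lif, Il6ra, Il6st, Stat3 and Socs1, which says only that these letters are not in those windows.

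Levels can be compared between genes only per length, here as CPM per kilobase of merged exon. In compressed macrophages the order was Socs3 at 65.4 ± 5.31, Lif at 38.4 ± 6.45, Osm at 18.8 ± 2.05, Stat3 at 11.7 ± 1.74, Il6st at 7.34 ± 1.87, Il6ra at 6.2 ± 0.789 and Cish at 2.79 ± 0.382 (SD, n = 6). Socs1 at 0.657 ± 0.165, Il6 at 0.642 ± 0.126 and Socs2 at 0.147 ± 0.0578 followed under 1. Neighbours whose libraries overlapped in that order were Stat3 with Il6st, Il6st with Il6ra, and Socs1 with Il6. In controls the order was Socs3 at 19.3 ± 2.68, Stat3 at 10.2 ± 0.324, Osm at 9.91 ± 0.722, Il6ra at 8.95 ± 0.253, Il6st at 6.77 ± 0.265 and Lif at 3.13 ± 0.411 (SD, n = 6). Under 1 came Socs1 at 0.59 ± 0.0503, Cish at 0.212 ± 0.0459, Il6 at 0.193 ± 0.0519 and Socs2 at 0.033 ± 0.00647. Neighbours that overlapped there were Stat3 with Osm, Osm with Il6ra, and Cish with Il6. Socs3 was first and Socs2 was last in both groups. Lif moved the most places, standing second in compressed macrophages and below both receptor chains in controls.

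**Figure D4:**
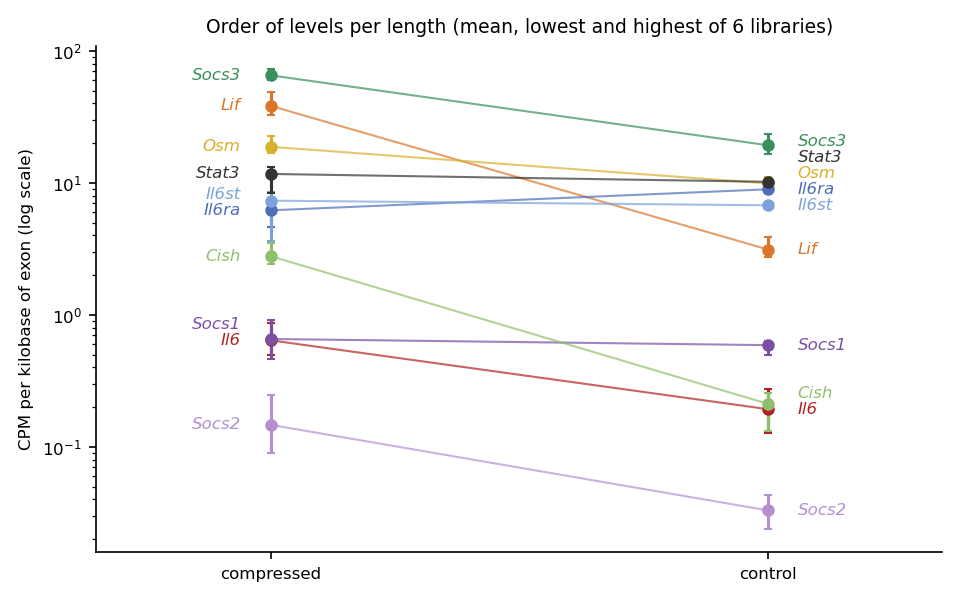
CPM per kilobase of merged exon (log axis) of the 10 genes in compressed macrophages (left) and controls (right), as the mean with bars to the lowest and highest of 6 libraries, joined by a line per gene. Lif stands at 38.4 in compressed macrophages and 3.13 in controls, crossing the lines of other genes, and Socs3 is on top in both.

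Within the compressed group the 10 genes did not vary together. Compressed replicate 6 was the highest of its group for Il6, Osm, Socs1 and Socs2 and the lowest for Lif, Il6ra, Il6st and Stat3. The genes that were lowest there have 4350 to 11099 bases of merged exon. Of those that were highest there, Il6, Osm and Socs1 have 2428, 2272 and 2908 bases, and Socs2 has 9531 bases. The part of RNA length in these departures was not tested gene by gene. Compressed replicate 5 was the highest for Lif, Il6st, Socs3 and Cish. Among controls, replicate 1 was the highest of its group for 6 of the 10 genes and replicate 4 was the lowest for 6.

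The genes whose pattern over the 12 libraries was most like that of Cish were Lif, Mmp9 and Ptgs2. Likeness was the root mean square difference of log2 CPM relative to the control mean, over 10557 candidate genes, and it was 0.228 for Lif, 0.251 for Mmp9 and 0.272 for Ptgs2. Mmp9, a gelatinase, had a log2 fold change of 3.65, and Ptgs2, the inducible cyclooxygenase, had one of 3.51. Nearest to Socs3 were Sqor at 0.122, a mitochondrial sulfide oxidase, Eno2 at 0.126, a glycolytic enolase, and Ccrl2 at 0.130, a chemerin-binding receptor. Nearest to Il6 were Sapcd1 at 0.242, Stap2 at 0.244, an adaptor protein, and Adm at 0.247, which encodes adrenomedullin. These are descriptions with no test.

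Other genes of the pathway were taken from lists written around the 10 genes, with earlier results of these data known. The counts are therefore descriptions. Each reads against the 24.5% of tested genes that were higher and the 21.9% that were lower. Of 15 other family cytokines and receptor chains, 5 were tested, 4 were higher and 0 were lower, and their median log2 fold change was 1.08. For the count of 0 lower, edgeR also gave 0 at an unadjusted p under 0.05 and DESeq2 gave 0. The subunits of interleukin 27, which signals through gp130 and its own receptor, were both higher. Il27 averaged 5.25 ± 1.2 CPM in compressed macrophages and 1.47 ± 0.346 CPM in controls (log2 fold change 1.84, SE 0.173, edgeR adjusted p = 1.22e-06; SD, n = 6 each). Ebi3 averaged 58.9 ± 7.55 CPM in compressed macrophages and 28.4 ± 1.85 CPM in controls (log2 fold change 1.05, SE 0.081, edgeR adjusted p = 1.69e-07). Clcf1 and Il11, which encode 2 more cytokines of the family and stayed under 1 CPM, completed the higher genes and are named after their values were seen. Clcf1 had 132 counts over compressed libraries and 29 over controls, and Il11 had 183 over compressed libraries and 98 over controls.

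Of the Janus kinases and the other STATs, 9 of 10 were tested, and 3 kinases were higher. Jak2, a kinase that serves gp130 and the GM-CSF receptor, averaged 83.4 ± 14.2 CPM in compressed macrophages and 43.6 ± 1.46 CPM in controls (log2 fold change 0.93, SE 0.103, edgeR adjusted p = 5.44e-06). Jak3 had a log2 fold change of 0.61 (edgeR adjusted p = 0.000418) and Tyk2 one of 0.44 (edgeR adjusted p = 0.0132), both with overlapping groups. The other tested STATs and Jak1 were not called, and 0 genes of the list were lower by edgeR, at an unadjusted p under 0.05 or by DESeq2. Without compressed replicate 6 6 genes of the list were higher. Of 14 other inhibitors of cytokine receptor signalling, all tested, 2 were higher and 2 were lower, and the largest were Pias2 at -0.33 (edgeR adjusted p = 0.0167), Ptpn1 at -0.27 (edgeR adjusted p = 0.00313) and Pias3 at 0.20 (edgeR adjusted p = 0.023). Ptpn1 encodes a phosphatase that acts on Janus kinases, and the Pias genes encode inhibitors of activated STATs. That list gave 7 higher and 5 lower without compressed replicate 6. Of the 4 tested proteases and partners that cut receptors from the cell surface, Rhbdf2, which carries ADAM17 to the surface, was higher by 0.53 (edgeR adjusted p = 4.83e-05). Adam17 itself, which sheds the IL-6 receptor and is named after its values were seen, was at 0.06 (edgeR adjusted p = 0.53). Without compressed replicate 6 the list had 2 higher genes, Adam17 among them at 0.14 (edgeR adjusted p = 5.12e-05).

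Among genes described as STAT3 targets, 22 of 24 were tested, 16 were higher and 2 were lower, with a median log2 fold change of 0.74. Tnfrsf1b, the second TNF receptor, averaged 173 ± 28.4 CPM in compressed macrophages and 51.2 ± 3.77 CPM in controls (log2 fold change 1.76, SE 0.100, edgeR adjusted p = 1.06e-08). Lcn2, an iron-siderophore binding protein, averaged 104 ± 18.7 CPM in compressed macrophages and 30.8 ± 5.08 CPM in controls (log2 fold change 1.75, SE 0.131, edgeR adjusted p = 1.39e-07). The lower genes were Birc5, the mitotic protein survivin, at -0.92 (edgeR adjusted p = 8.81e-06), and Fcgr1, an Fc receptor, at -0.39 (edgeR adjusted p = 7.95e-05), which is named after its values were seen. Most of these genes answer to factors other than STAT3 as well, so the count is one of genes and not of STAT3 activity. Of 15 factors that act on the Il6 promoter or on Il6 mRNA, 10 were higher and 1 was lower, with a median of 0.40. The list mixes factors that raise Il6 with factors that lower it, so the count gives no direction for Il6. Atf3, a stress-induced transcription factor, had a log2 fold change of 1.36 (edgeR adjusted p = 1.87e-09), and Nfkbiz, an atypical IkB protein needed for Il6 induction in mouse macrophages, had one of 1.14 (edgeR adjusted p = 1.92e-07). Elavl1, an RNA-binding protein that stabilises mRNAs, was lower at -0.25 (edgeR adjusted p = 0.00143).

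Of 16 cytokines and receptors in a list written around STAT5, 10 were tested, 9 were higher and 0 were lower. Their median was 0.97 on the log2 fold change scale. Members of this list, G-CSF among them, also act through other factors, so the count is not one of STAT5 activity. The count of lower genes was also 0 at an unadjusted edgeR p under 0.05 and by DESeq2. Csf2, which encodes GM-CSF, averaged 14.8 ± 4.7 CPM in compressed macrophages and 1.59 ± 0.164 CPM in controls (log2 fold change 3.21, SE 0.194, edgeR adjusted p = 1.72e-08; SD, n = 6 each). Csf3, which encodes G-CSF, averaged 319 ± 68.6 CPM in compressed macrophages and 32 ± 7.46 CPM in controls (log2 fold change 3.31, SE 0.178, edgeR adjusted p = 6.44e-09). Interferons, their receptors and genes that interferons induce, a list written around the inducers of Socs1, ran the other way: 12 of 16 were tested, 1 was higher and 6 were lower, with a median of -0.23. Ifit1, an antiviral RNA-binding protein, was at -0.93 (edgeR adjusted p = 1.27e-05), Ifit3 at -0.81 (edgeR adjusted p = 1.17e-05) and Irf7, the interferon regulatory factor of the type I response, at -0.47 (edgeR adjusted p = 2.93e-05). The higher one was Ifnar1, a receptor chain for type I interferons, at 0.30 (edgeR adjusted p = 0.00461).

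The paper reports the IL6/JAK/STAT signalling pathway as upregulated with compression in its gene set analysis. Only a part of a published IL6/JAK/STAT3 set was counted here, the first 48 genes in alphabetical order, as shown in the paper's supplement. Of these, 36 were tested, 23 were higher and 1 was lower, with a median log2 fold change of 0.48. This part of the set includes Il6 and Il6st themselves and genes of the lists above. Its largest changes were Il1b at 5.87, Csf2 at 3.21 and Cxcl2, a neutrophil chemoattractant, at 2.07. Il1b, the inflammatory cytokine interleukin 1 beta, averaged 303 ± 56.3 CPM in compressed macrophages and 5.19 ± 1.37 CPM in controls (edgeR adjusted p = 1.74e-10). The lower gene was Bak1, a mitochondrial effector of cell death, at -0.40 (edgeR adjusted p = 1.61e-06).

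**Figure D5:**
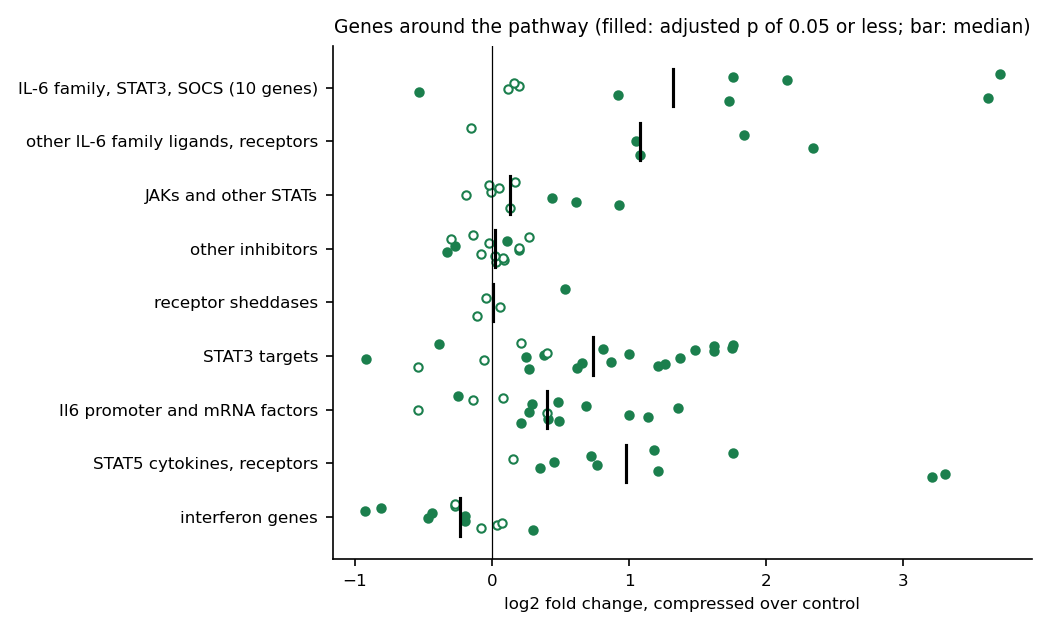
Log2 fold change, compressed over control (horizontal axis), of every tested gene of the 10 genes and of 8 lists around them, with a bar at the median of each. Filled points are at an edgeR adjusted p of 0.05 or less. The medians run from 1.32 for the 10 genes to -0.23 for the interferon genes.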

How the data were processed

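RNA from 6 compressed and 6 control libraries of RAW264.7 cells was sequenced after directional, mRNA-enriched preparation. The authors aligned reads with STAR 2.7.2, and their notes name GRCm39. They deposited whole-number counts per Ensembl gene, unnormalized. For the counting program, its strand setting and the annotation release, the sources used here give nothing. Columns were matched to samples by their labels, and 0 columns of samples were left unmatched.

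Gene names and exon lengths came from GENCODE M21 (GRCm38), matched by ID for 51948 of 56941 IDs, which held 99.5% of the counts. Because the builds differ, no gene coordinates are given, and promoter windows keep the RefSeq build GRCm38.p6.

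The deposited counts were fitted in edgeR 4.0.16 (R 4.3.3), with DESeq2 1.42.0 as the second tool. After filterByExpr (minimum count 10) and TMM scaling, the groups were compared by the quasi-likelihood F test, and p-values were adjusted over the 15001 tested genes by the Benjamini-Hochberg method (threshold 0.05). Each standard error is derived from the fitted log2 fold change and its F statistic. Ratios used exact permutation tests. The fold changes lay far apart for Lif with Osm, Cish with Socs1 and Socs3 with Stat3. The small p-values of those ratios follow from these fold changes and are no separate evidence. The ratios of Il6 to Osm and of Il6st to Il6ra are likewise built from levels already given. The steps were tested on simulated data.

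Genes named besides the 10 were, for each list, up to 3 called genes with the largest change and at least 1 CPM in the higher group, the largest called change against the list's median, and the 3 nearest patterns of Il6, Socs3 and Cish. Other names are marked where they appear, and some genes that the rule takes are left out. The 10 genes, the lists and the rule were chosen with earlier results of these data known. Alternatives were DESeq2, RLE factors, library size alone, an offset on transcript length, all genes with a count, a limit of 50 on the mean normalized count, an adjusted p of 0.01, replicate number as a block, and leaving out each library. Lengths from the longest transcript replaced merged exons for the order of levels. Some genes of the lists enter the counts but are not reported here by name.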

Additional observations from a re-analysis of the deposited data

Results flagged for a closer look

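In 5 of the 20 gene and group combinations examined, 1 library stood apart from the other 5 of its group by Dixon's criterion, and 4 of the 5 were compressed replicate 6. Chance alone marks about 1 in 20 groups. Compressed replicate 6 was the high library for Osm at 51.3 CPM, and the low one for Il6ra at 40.3 CPM, Il6st at 40.6 CPM and Stat3 at 79.4 CPM. Osm and Il6ra kept their call without it, and Il6st and Stat3 gained one. Compressed replicate 5 was the high library for Cish at 22.5 CPM, and all compressed libraries there were above all controls.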

How the results depend on the processing

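Each of the 10 genes was refitted under up to 20 alternatives, 198 fits in all. Direction and call were kept in 195, a call was gained in 3, and none was lost or reversed. The gains were Il6st at 0.25 without compressed replicate 6, and Stat3 at 0.22 with the length offset and 0.27 without compressed replicate 6. Leaving out each library in turn gave 0.07 to 0.25 for Il6st and 0.16 to 0.27 for Stat3. Il6 and Socs2 were not tested at a mean count over 50.

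Replicate numbers did not pair the libraries: the correlation of same-numbered deviations was -0.115 to 0.040, and 0 of 6 compressed libraries correlated best with their own number. The replicate block kept 6 higher and 1 lower of the 10 genes. Over all genes it gave 3299 higher and 3094 lower, and leaving out libraries gave 3326 to 5117 higher and 2999 to 4864 lower, the upper ends without compressed replicate 6 (3677 and 3283 with all libraries).

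Lists were less stable. Of the other family genes, 2 were higher at a mean count over 50, and 0 to 1 lower when libraries were left out. Among Janus kinases and STATs leaving out libraries gave 3 to 6 higher and 0 to 1 lower. Among the other inhibitors the number higher was 1 with RLE factors, 4 with the length offset, and 0 with library size alone, no filter, an adjusted p of 0.01 or the block. The number lower was 5 with library size alone and 1 at an adjusted p of 0.01. Leaving out libraries gave 0 to 7 higher and 2 to 5 lower. For the proteases it gave 1 to 2 higher, and the length offset gave 2. Of the Il6 factors, 2 were lower with the block and 1 to 2 when libraries were left out. Of the published set, 2 were lower with DESeq2 and with library size alone, 3 with the length offset and 1 to 2 when libraries were left out. With longest transcripts Il6 ranked 8 and Socs1 ranked 9 per length in compressed macrophages. The cause of these shifts was not tested. Among the 10 genes, Il6 and Socs2 rest on the fewest counts, and Lifr and Osmr were under the filter.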
